A study of Mus musculus with 13 samples.

Results

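Pan-neuronal differentiation genes are switched on in neurons of nearly every kind once precursors stop dividing, and they encode the RNA-binding proteins, microtubule proteins and secretory proteins that build an axon. The 10 genes described here are Elavl2, Elavl3, Elavl4, Rbfox1, Dcx, Tubb3, Mapt, Stmn2, Gap43 and Snap25. They were chosen by name for this known role, out of 18194 genes named on the array, and all 10 were among the 15019 genes that passed the filter on low values and were tested. In the urogenital sinus of the mouse embryo 4 of them were higher than in the bladder by the test, and the fitted difference was positive for all 10.

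In the embryo, neurons that supply the bladder and urethra descend from neural crest cells, which migrate to the lower urinary tract and gather in pelvic ganglia beside the urogenital sinus and bladder neck. A differentiating neuron of this kind first makes RNA-binding proteins of the Elavl (Hu) family and cytoskeletal proteins of the growing axon, while proteins of transmitter release follow as terminals form. In bulk tissue these transcripts report neurons and their precursors together, and fewer neurons and less RNA per neuron cannot be told apart.

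The samples were microdissected from embryos at embryonic day 14 on the FVB/N strain, sex unknown, that carried SMGA/EGFP, a transgene with the fluorescent protein EGFP under control of the promoter of the smooth muscle gamma-actin gene, Actg2. The urogenital sinus was the dark stretch between the fluorescent bladder and urethra, so it was defined by the absence of the smooth muscle reporter. There were 4 urogenital sinus arrays (replicates 1, 2, 6 and 7), 3 urethra arrays (1, 2 and 6) and 3 bladder arrays (2, 6 and 8), from samples that were not pooled. By Theiler stage, which scores limb and body form, arrays numbered 1 and 2 came from stage 21 and those numbered 6 to 8 from stage 22. A newborn reference of 3 arrays held RNA of whole wild-type FVB/N mice at postnatal day 1, pooled from 4 males and 4 females, and contains the brain and spinal cord as well as every other organ. The labels leave unsaid whether regions were taken from the same embryos, and a p-value here covers only the spread seen among these samples. Every sample was amplified in 2 rounds before hybridization to Affymetrix MOE430 arrays.

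Values are log2 intensities, floored at 5.65, and a level under 7.39 is below the level that the filter asked for on at least 3 arrays. Probe sets differ in brightness, so levels were compared between samples for 1 gene and not between genes. Actg2, whose promoter drives the reporter, measured 8.99, 9.31, 7.99 and 10.77 on the urogenital sinus arrays, 12.89, 13.65 and 13.40 on the urethra arrays and 13.97, 13.51 and 13.55 on the bladder arrays. Median intensity was 259 to 389 for urogenital sinus, 221 to 378 for urethra and 142 to 238 for bladder arrays. The arrays numbered 1 stood apart from the others of their regions: Hbb-bh1, an embryonic globin, was at 15.04 in the urogenital sinus array and 14.51 in the urethra array with that number, and at 7.41 to 10.51 in the other 8 region arrays. Bladder replicate 8 and urethra replicate 1 had the widest gap between the 3' and 5' probe sets of Actb, 4.04 and 3.42, a measure of RNA shortening. For Gapdh the widest gaps were 5.26 on bladder replicate 6 and 5.21 on bladder replicate 8, and urethra replicate 1 had 4.59, so the pair of genes ordered the arrays differently. The part of these differences between arrays in the neuronal results was not tested, and the main counts are given with and without the arrays numbered 1.

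RefSeq promoter windows (GRCm38.p6) were matched for 6 of the 10 genes, at 16 annotated starts, and were searched for motifs because the genes moved together. Stmn2, Snap25, Mapt and Gap43 had no matched window. CAGCTG and CAGATG are E-boxes, the kind of site read by proneural basic helix-loop-helix factors, TTCAGCACC is the left part of the element bound by the neuronal repressor REST, and TATAAA is the TATA box. Both strands of the 250 bases before each start were searched, where CAGCTG reads the same on either strand. These 3 windows are printed because they hold CAGCTG, and Elavl3 and Rbfox1 among them were called in the comparison with the bladder. Capitals mark these E-boxes and the TATA box, and each window ends at the base before the start.
Elavl3, chr9:22052024-22052273, minus strand: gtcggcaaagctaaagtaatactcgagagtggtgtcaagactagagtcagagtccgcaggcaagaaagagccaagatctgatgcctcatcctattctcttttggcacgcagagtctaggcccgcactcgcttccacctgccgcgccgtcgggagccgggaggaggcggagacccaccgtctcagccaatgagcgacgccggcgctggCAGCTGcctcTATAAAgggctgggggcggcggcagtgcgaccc
Elavl4, chr4:110287528-110287777, minus strand: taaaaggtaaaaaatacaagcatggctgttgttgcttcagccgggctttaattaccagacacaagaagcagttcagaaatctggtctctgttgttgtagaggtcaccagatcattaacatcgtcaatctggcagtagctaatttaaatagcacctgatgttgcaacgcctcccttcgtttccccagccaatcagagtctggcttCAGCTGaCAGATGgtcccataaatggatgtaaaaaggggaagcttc
Rbfox1, chr16:7069585-7069834, plus strand: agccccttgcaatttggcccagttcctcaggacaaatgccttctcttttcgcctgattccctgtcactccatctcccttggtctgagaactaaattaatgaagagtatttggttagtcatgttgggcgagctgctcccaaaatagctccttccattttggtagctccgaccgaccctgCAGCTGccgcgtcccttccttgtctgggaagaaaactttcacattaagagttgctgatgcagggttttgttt
CAGCTG lay 43 to 38 bases before the start in Elavl3, 46 to 41 bases in Elavl4 and 72 to 67 bases in Rbfox1. It was found at 4 of the 16 starts of these genes, of which 2 are overlapping Elavl4 windows that hold the same site, and 13% of 32851 annotated mouse windows of the same length held it. In Elavl4 a CAGATG followed 1 base after it, and CAGATG was in windows of no other gene of the 6, against 14.4% of all windows. The TATA box letters were in windows of Elavl3 and Dcx, and in 12.4% of all windows. TTCAGCACC was in none of the 16 windows and in 0.301% of all windows. At so small a share a match in 16 windows was unlikely, so its absence is no result about these genes. These matches describe the letters in the windows and no binding.

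Among the RNA-binding genes, Rbfox1 encodes a splicing regulator of neurons and muscle that binds UGCAUG in introns. Its level was 10.96, 11.25, 11.09 and 10.46 on the urogenital sinus arrays, 8.39, 10.09 and 9.29 on the urethra arrays, 5.85, 6.34 and 7.34 on the bladder arrays, and 12.03, 12.63 and 12.64 on the reference arrays. No region overlapped another, and urogenital sinus replicate 1 lay among the other urogenital sinus arrays. The urogenital sinus averaged 10.94 ± 0.34 (SD, n = 4) and the bladder 6.51 ± 0.76 (SD, n = 3), a log2 difference of 4.43 (SE 0.48, limma adjusted p = 0.00387). Since every bladder array was under the filter level, this is at least an 11.7-fold higher level, where that level stands in for a detection limit. Rbfox1 was also the 1 gene of the 10 to pass the test between urethra and bladder, at 2.75 (SE 0.52, limma adjusted p = 0.0228), or at least 3.65-fold higher.

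Elavl3 encodes HuC, a Hu protein that binds U-rich stretches of messenger RNA and is made in neurons. It measured 9.15, 11.52, 10.97 and 10.28 on the urogenital sinus arrays, 8.03, 9.31 and 8.98 on the urethra arrays, 7.55, 5.65 and 7.13 on the bladder arrays, and 9.56, 10.31 and 10.77 on the reference arrays. All urogenital sinus arrays exceeded all bladder arrays, bladder replicate 6 was at the floor, and urogenital sinus replicate 1 fell between the 2 highest urethra arrays. The difference between urogenital sinus, 10.48 ± 1.02 (SD, n = 4), and bladder, 6.78 ± 1.00 (SD, n = 3), was 3.70 (SE 0.65, limma adjusted p = 0.0211).

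Elavl2, which encodes HuB and is also made in germ cells, measured 10.79, 14.04, 14.47 and 14.44 on the urogenital sinus arrays, 8.12, 12.66 and 12.05 on the urethra arrays, 9.09, 9.87 and 10.04 on the bladder arrays, and 11.30, 11.14 and 12.15 on the reference arrays. Urogenital sinus replicates 2, 6 and 7 exceeded every other array, the reference included, while replicate 1 was above all bladder arrays but below the higher pair of urethra arrays. The groups did not overlap between urogenital sinus and bladder, but the difference of 3.77 (SE 1.16) did not pass the test (limma adjusted p = 0.132).

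Elavl4, which encodes HuD, a Hu protein tied to axon growth, measured 6.54, 13.59, 13.50 and 13.07 on the urogenital sinus arrays, 6.17, 10.09 and 10.28 on the urethra arrays, 7.99, 8.94 and 11.30 on the bladder arrays, and 10.57, 10.64 and 10.23 on the reference arrays. Both arrays numbered 1 were under the filter level and below all bladder arrays, and the other 3 urogenital sinus arrays exceeded all other arrays. The fitted difference between urogenital sinus and bladder was 2.26 (SE 1.77, limma adjusted p = 0.522), and that between urethra and bladder was -0.57 (SE 1.89, limma adjusted p = 0.877), the only negative one among the 10 genes in the 3 comparisons of regions.

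The microtubule genes followed. Dcx encodes doublecortin, a microtubule protein of young, migrating neurons, and measured 9.92, 12.59, 12.09 and 11.06 on the urogenital sinus arrays, 7.78, 10.03 and 8.92 on the urethra arrays, 7.51, 7.06 and 8.80 on the bladder arrays, and 13.16, 12.95 and 12.85 on the reference arrays. Every urogenital sinus array exceeded every bladder array, and replicate 1 lay below the highest urethra array. The difference between urogenital sinus, 11.42 ± 1.18 (SD, n = 4), and bladder, 7.79 ± 0.90 (SD, n = 3), was 3.63 (SE 0.74, limma adjusted p = 0.0381).

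Mapt encodes tau, which binds and steadies axonal microtubules. Its level was 8.996, 11.52, 11.52 and 9.59 on the urogenital sinus arrays, 7.75, 8.86 and 8.88 on the urethra arrays, 6.67, 7.27 and 7.68 on the bladder arrays, and 12.40, 11.56 and 11.76 on the reference arrays. As for Rbfox1, no region overlapped another. Urogenital sinus, at 10.40 ± 1.31 (SD, n = 4), exceeded bladder, at 7.21 ± 0.51 (SD, n = 3), by 3.19 (SE 0.67, limma adjusted p = 0.0404).

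Tubb3 encodes the beta-tubulin that is used as a general marker of neurons. It measured 7.09, 12.02, 10.98 and 9.25 on the urogenital sinus arrays, 5.78, 9.86 and 9.58 on the urethra arrays, 5.95, 5.72 and 6.89 on the bladder arrays, and 11.92, 12.002 and 12.30 on the reference arrays. Each bladder array was under the filter level, as were both arrays numbered 1, and urogenital sinus replicate 1 was only just above the highest bladder array. The groups did not overlap, at least 5.44-fold higher in the urogenital sinus, but the difference of 3.65 (SE 1.25) did not pass (limma adjusted p = 0.167).

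Stmn2, or SCG10, encodes a protein that loosens microtubules in growth cones. It measured 5.65, 13.70, 14.07 and 12.98 on the urogenital sinus arrays, 5.65, 10.91 and 10.95 on the urethra arrays, 7.32, 7.56 and 11.06 on the bladder arrays, and 12.60, 12.56 and 12.72 on the reference arrays. It had the widest spread of the 10 genes among urogenital sinus arrays, with an SD of 3.99 (n = 4), because replicate 1 was at the floor and the others were above the reference. The difference between urogenital sinus and bladder was 2.95 (SE 2.12, limma adjusted p = 0.488).

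The membrane and release genes came last. Gap43 encodes a phosphoprotein of growth cones, made by Schwann cell precursors as well as by neurons. It measured 8.28, 12.62, 11.92 and 10.18 on the urogenital sinus arrays, 7.05, 10.56 and 9.61 on the urethra arrays, 6.61, 6.41 and 7.69 on the bladder arrays, and 10.84, 11.27 and 12.31 on the reference arrays. Urogenital sinus arrays did not overlap bladder arrays, and the difference was 3.85 (SE 1.08, limma adjusted p = 0.103).

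Snap25 encodes a SNARE protein that drives the fusion of synaptic vesicles with the membrane. It measured 5.65, 12.26, 12.32 and 11.71 on the urogenital sinus arrays, 9.04, 7.91 and 9.41 on the urethra arrays, 5.65, 5.65 and 9.13 on the bladder arrays, and 11.85, 10.73 and 10.86 on the reference arrays. Replicate 1 of the urogenital sinus was at the floor together with 2 bladder arrays, whereas urethra replicate 1, unlike for the other 9 genes, was not the lowest urethra array. The difference of 3.67 (SE 1.57) did not pass (limma adjusted p = 0.271).

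**Figure D1:**
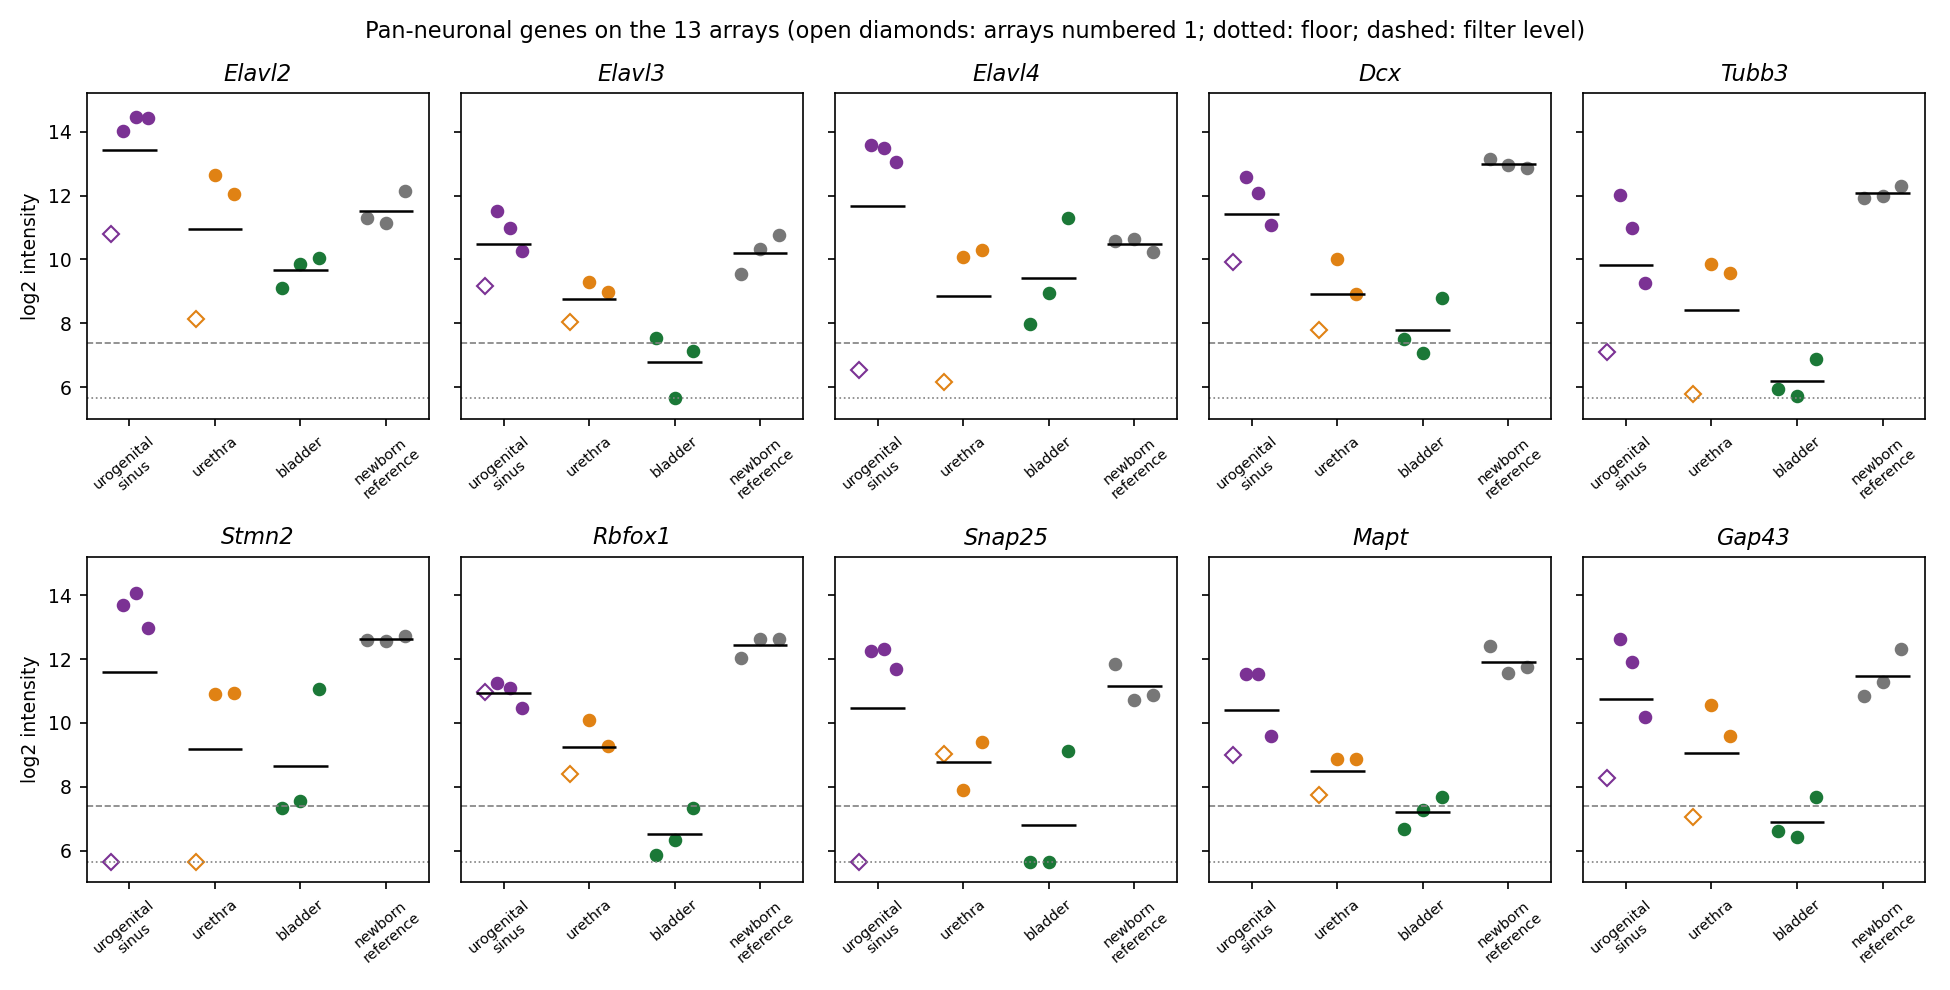
Log2 intensity of each of the 10 genes (vertical axis, 1 panel a gene) on every array of the urogenital sinus, urethra, bladder and newborn reference, with black bars at group means, open diamonds for the arrays numbered 1, a dotted line at the floor of 5.65 and a dashed line at the filter level of 7.39. Urogenital sinus replicates 2, 6 and 7 sit high in every panel, and replicate 1 sits at 5.65 for Stmn2 and Snap25 but at 10.96 for Rbfox1.

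Averaged over the 10 genes, the level was 8.30, 12.51, 12.29 and 11.30 on urogenital sinus replicates 1, 2, 6 and 7, against 7.38, 10.03 and 9.79 on the urethra arrays, 7.02, 7.05 and 8.71 on the bladder arrays and 11.62, 11.58 and 11.86 on the reference arrays. Urogenital sinus replicates 2 and 6 were among the 3 highest of the 10 region arrays for all 10 genes. The 3 highest arrays were exactly replicates 2, 6 and 7 of the urogenital sinus for 7 genes, all but Tubb3, Rbfox1 and Gap43, and 2.67% of all tested genes had that order. Urogenital sinus replicate 1 was among the 3 highest for 1 gene, Rbfox1.

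Against the bladder, 4 of the 10 genes were called higher in the urogenital sinus (limma, adjusted p under 0.05 over all 15019 genes): Rbfox1, Elavl3, Dcx and Mapt. No gene of the 10 was called lower, and 1.73% of all tested genes were called higher. The 10 differences ranged from 2.26 to 4.43 with a median of 3.66, while the median over all tested genes was 0.19. An unadjusted p under 0.05 was reached by 8 of the 10 genes and by 17.2% of all genes. The urogenital sinus and bladder arrays did not overlap for 7 genes, and for 10.6% of all genes in this direction.
With urogenital sinus replicate 1 left out, 7 of the 10 were called (3.15% of all genes called higher), and without both arrays numbered 1 all 10 were (3.7%), the second an alternative added after the data were seen. Leaving out bladder replicate 2, 6 or 8, or urogenital sinus replicate 2 or 6, left 1 of the 10 called, and leaving out urogenital sinus replicate 7 or urethra replicate 6 left 2. Calls over all genes moved as well, from 46 to 647 with single arrays left out, against 382 with all arrays. Urethra arrays enter this comparison only through the shared estimate of the spread. Rbfox1 was called in all 10 fits that left out a single array, Elavl3 in 5, Dcx in 3 and Mapt in 2. All 10 differences stayed positive in those fits, between 1.55 and 5.28.

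Against the urethra, 0 of the 10 genes were called in the urogenital sinus (limma), where 0.0133% of all tested genes were called in either direction. All 10 differences were positive, from 1.43 for Tubb3 to 2.83 for Elavl4, with a median of 1.81 beside -0.05 over all genes. The smallest adjusted p was 0.271, for Rbfox1, whose difference was 1.68 (SE 0.48), and Dcx followed at 2.51 (SE 0.74, limma adjusted p = 0.286). An unadjusted p under 0.05 was reached by 4 genes, Rbfox1, Dcx, Mapt and Elavl3, and by 10.4% of all genes. The groups did not overlap for Rbfox1 and Mapt, and for 3.32% of all genes in this direction. A p that misses the threshold does not show that the levels were alike.

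Between urethra and bladder, Rbfox1 was the 1 gene called (limma), with 2.62% of all tested genes called higher. Leaving out bladder replicate 2 or 6, or urethra replicate 2 or 6, ended that call. Over all genes 651 were called in either direction, and 111 to 1292 with single arrays left out. The differences were positive for 9 of the 10 genes, with a median of 1.63 beside 0.25 over all genes. Elavl3, Rbfox1 and Mapt did not overlap between the groups, and neither did 22.6% of all genes in this direction. Elavl3 differed by 2.00 (SE 0.69, limma adjusted p = 0.126), Gap43 by 2.17 (SE 1.16, limma adjusted p = 0.274) and Snap25 by 1.98 (SE 1.68, limma adjusted p = 0.477). Tubb3 was at least 2.02-fold higher in the urethra by its mean and did not pass (limma adjusted p = 0.322). Mapt, Elavl2, Dcx and Stmn2 differed by 1.29, 1.28, 1.12 and 0.52 and did not pass. In order of mean level, 9 of the 10 genes ran from urogenital sinus through urethra to bladder. For Elavl4 the bladder mean of 9.41 ± 1.70 (SD, n = 3) was above the urethra mean of 8.84 ± 2.32 (SD, n = 3), a step within the spread.

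**Figure D2:**
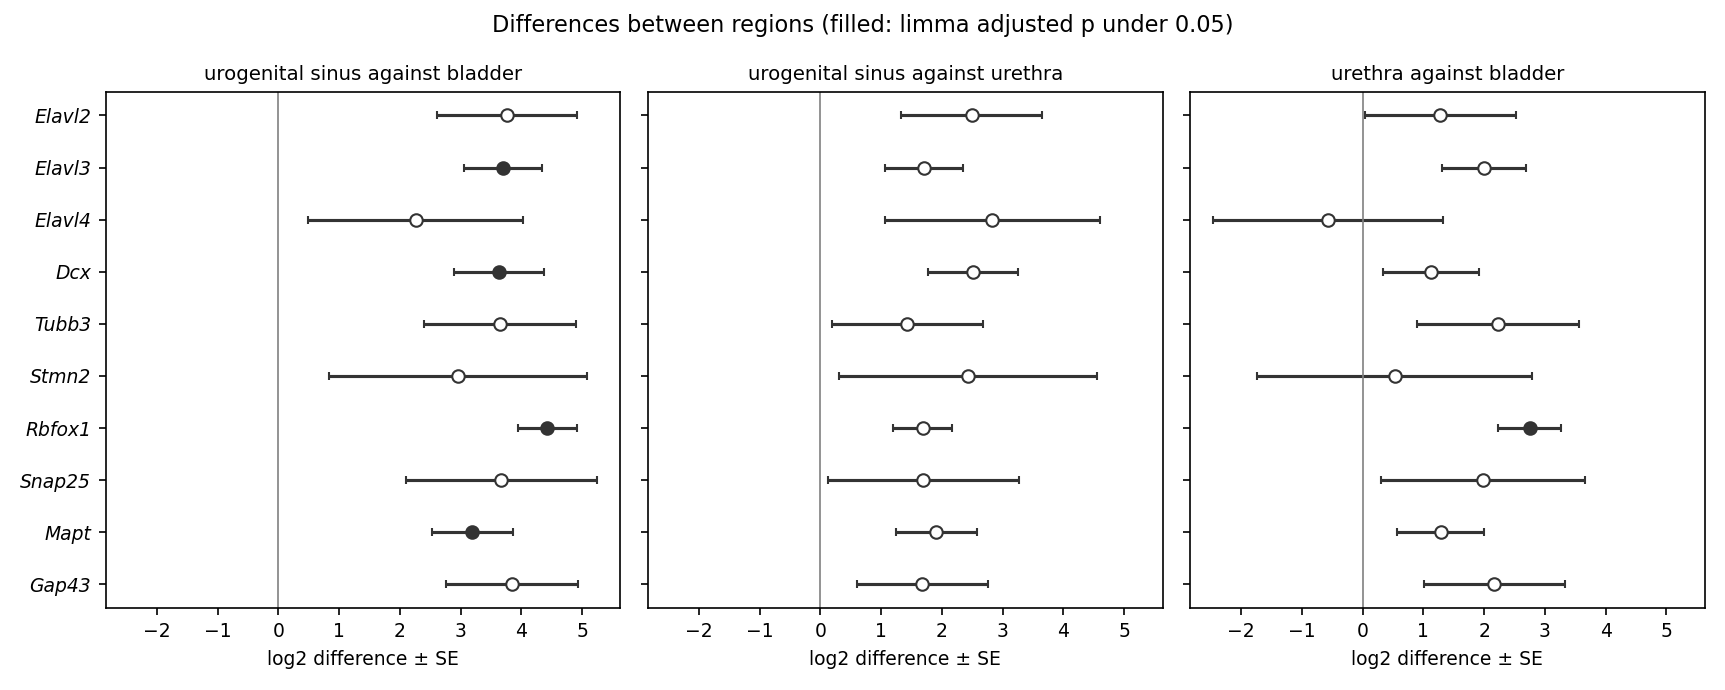
Log2 differences with standard errors (horizontal axes) for the 10 genes in the urogenital sinus against the bladder, the urogenital sinus against the urethra, and the urethra against the bladder, filled where the limma adjusted p was under 0.05. The 4 filled points of the first panel are Elavl3, Dcx, Rbfox1 and Mapt, no point is filled in the middle panel, and Rbfox1 is the 1 filled point of the last.

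The newborn reference gives the level of these genes in a whole animal with a nervous system, and its 3 arrays counted as 1 sample because they repeat 1 kind of pooled RNA. That sample has no spread of its own, and the fit gives it the variance of the dissected regions. In the urogenital sinus 0 of the 10 genes were called against it (limma, with 13.8% of all genes called, and 0 of the 10 beside 25.9% of all genes at an unadjusted p under 0.05), and differences ran from -2.24 for Tubb3 to 1.91 for Elavl2, 3 of them positive. In the urethra Rbfox1, at -3.17 (SE 0.72, limma adjusted p = 0.0172), and Dcx, at -4.08 (SE 1.12, limma adjusted p = 0.0382), were lower than in the reference, where 8.87% of all genes were called lower. In the bladder 4 genes were lower, with 11.2% of all genes called lower.
Those 4 were Rbfox1, at least 32.9-fold lower (limma adjusted p = 0.000402), Dcx at -5.20 (SE 1.12, limma adjusted p = 0.0109), Mapt at -4.70 (SE 1.00, limma adjusted p = 0.0107) and Elavl3 at -3.44 (SE 0.97, limma adjusted p = 0.0373). These comparisons share the reference arrays, so their counts are given side by side and not set against each other. For Elavl2, Elavl3 and Elavl4 the highest mean was in the urogenital sinus, and for the other 7 genes it was in the reference. Without urogenital sinus replicate 1 the bladder count was 7, and the urethra count was 1 without bladder replicate 2 or 6, urethra replicate 1 or 6, or urogenital sinus replicate 6 or 7. Leaving out an array of another region leaves these differences unchanged and moves a count only through the spread shared by the regions. Over all genes the bladder calls ran from 1776 to 3411 with single arrays left out, against 2557 with all arrays. The urethra calls ran from 1575 to 2523, against 1987.

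Between Theiler stage 22 and stage 21, with region as a covariate, 0 of the 10 genes and 0 of all genes were called (limma, 0% of genes), and 0 of the 10 genes but 25.5% of all genes had an unadjusted p under 0.05. The 10 differences ranged from -0.12 to 2.98 with a median of 0.73, beside -0.11 over all genes. Stage 21 held both arrays numbered 1. Without both of them the median was -0.041, with 4 of the 10 differences positive, and without urogenital sinus replicate 1 alone it was 0.16, against 0.73 with 9 positive when all arrays were used.

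On the array 8 of the 10 genes have several probe sets, 29 in all, and the 19 that did not stand for a gene are a further measurement of the same RNA. Between urogenital sinus and bladder the difference was positive for all 19, from 0.10 to 4.28. Of the 18 that passed the filter, 4 were called in a fit of the 27463 single-gene probe sets that passed it. The share of all probe sets called in that fit was not computed, so whether 4 is unusual was not tested. In that fit, of the probe sets that stood for the 4 called genes, those of Rbfox1 (limma adjusted p = 0.00645) and Elavl3 (0.0295) were called, and those of Dcx (0.0515) and Mapt (0.0561) were not. A further Dcx probe set (1448974_at) was at least 10.53-fold higher in the urogenital sinus (limma adjusted p = 0.0376), and another (1418141_at) at least 5.23-fold higher (limma adjusted p = 0.0472). For Rbfox1, 1455358_at was at least 4.54-fold higher (limma adjusted p = 0.00412), while the other probe sets had fitted differences of 0.51 and 1.17 and were not called.
Against the urethra 16 of the 19 were positive and 3 negative, and between urethra and bladder 15 were positive and 4 negative.

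Probe sets of 1 gene ordered the arrays that stood apart differently, each read across arrays within itself. For Elavl4, 1450258_a_at read 9.18, 11.66, 10.74 and 9.92 on the urogenital sinus arrays, against 7.11, 6.41 and 7.47 on the bladder arrays. Replicate 1 was thus the lowest urogenital sinus array but above every bladder array, whereas in the probe set that stood for the gene it was below every bladder array. With 1450258_a_at in its place, Elavl4 was 3.38 higher in urogenital sinus than in bladder (limma adjusted p = 0.0356 over the probe sets), and no urogenital sinus array overlapped a bladder array. For Stmn2, 1423281_at read 7.22, 10.73, 9.19 and 8.98 on the urogenital sinus arrays, against 6.32, 6.15 and 6.25 on the bladder arrays, at least 3.12-fold higher by the mean but not called (limma adjusted p = 0.126). Here too replicate 1 was lowest in its group and above the bladder arrays, below which it lay in the probe set that stood for the gene. For Elavl2, 1421883_at read 8.46 on urogenital sinus replicate 1, against 8.39, 8.85 and 12.46 on the bladder arrays, so that the groups overlapped in it and did not in the probe set that stood for the gene. A cause was not tested.

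**Figure D3:**
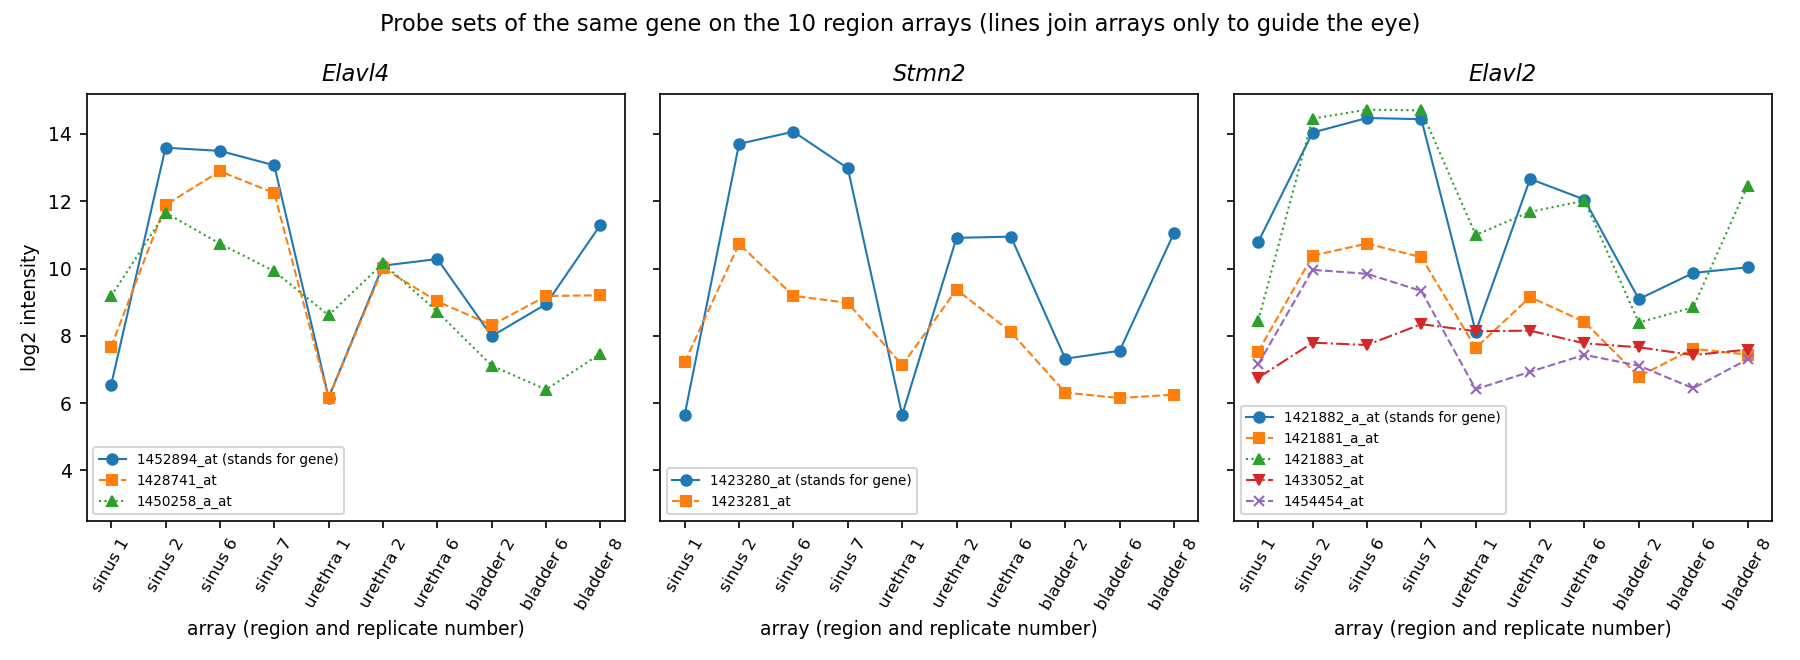
Log2 intensity (vertical axis) of the kept probe sets of Elavl4, Stmn2 and Elavl2 on the 10 region arrays, with lines that join arrays only to guide the eye. Urogenital sinus replicate 1 is the lowest urogenital sinus array in each Elavl4 probe set, at 6.54, 7.67 and 9.18, and in each Stmn2 probe set, at 5.65 and 7.22.

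Other neuronal genes were described by lists of known function. Of 30 tested genes of the neuronal cytoskeleton and axon growth, 28 had a positive difference between urogenital sinus and bladder (median 2.02, against 0.19 over all genes) and 5 were called higher, none lower, where 1.73% of all genes were called higher and 0.812% lower. Tubb2b, a beta-tubulin of newborn neurons, differed by 2.92 (SE 0.31) and Nrcam, an axonal adhesion molecule, by 2.87 (SE 0.32), both with limma adjusted p = 0.00387. Kif5a, a kinesin motor of axons, was at least 5.53-fold higher (limma adjusted p = 0.0283), and L1cam, an axonal adhesion molecule, differed by 2.78 (SE 0.58, limma adjusted p = 0.0407). Tubb2b measured 13.18, 14.32, 14.32 and 13.61 on the urogenital sinus arrays, against 10.72, 10.93 and 11.17 on the bladder arrays, so the groups did not overlap and replicate 1 was close to replicate 7.
Between urethra and bladder Tubb2b (1.98, limma adjusted p = 0.0146) and Nrcam (1.80, limma adjusted p = 0.023) were higher and Ncam1, an adhesion molecule also made outside neurons, was lower by a log2 difference of -1.78 (limma adjusted p = 0.00704), where 2.62% of all genes were called higher and 1.71% lower.

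Genes of synaptic vesicles and exocytosis, the group to which Snap25 belongs by function, had 24 of 26 positive differences between urogenital sinus and bladder (median 1.41) but 0 called. The smallest adjusted p was that of Syn1, a vesicle protein that tethers vesicles in the terminal, at 1.86 (SE 0.50, limma adjusted p = 0.0913). Among 14 other RNA-binding and splicing genes 3 were called higher and none lower (median 1.21), beside the same 1.73% of all genes: Celf3 by 2.40 (SE 0.43, limma adjusted p = 0.023), Nova1 by 2.28 (SE 0.45, limma adjusted p = 0.0343) and Celf6 by at least 1.55-fold (limma adjusted p = 0.0491), all regulators of splicing in neurons. Of 18 neurogenic transcription and precursor genes all had positive differences (median 1.15) and 2 were called, Tagln3, a protein of neurons, by at least 4.22-fold (limma adjusted p = 0.0285) and Sox11, a factor of immature neurons that is also made in mesenchyme and epithelium, by 1.58 (SE 0.35, limma adjusted p = 0.0486).
Between urethra and bladder 4 genes of that last list were called higher, Hes1, a repressor of neurogenesis, by 1.88 (limma adjusted p = 0.0147), Sox11 by 1.96 (limma adjusted p = 0.0237), Tagln3 by at least 3.10-fold (limma adjusted p = 0.0454) and Ebf3, a factor of differentiating neurons, by 2.27 (limma adjusted p = 0.0454), beside 2.62% of all genes, so its members included a factor that holds neurogenesis back.

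Lists of neuron types were read in the same way. All 25 tested autonomic genes had positive differences between urogenital sinus and bladder (median 1.91, against 0.19 over all genes), and 4 were called higher, as were 1.73% of all genes. Slc5a7, the choline transporter of cholinergic neurons, was at least 7.55-fold higher (limma adjusted p = 0.0407), and Chrnb4, a subunit of the ganglionic nicotinic receptor, at least 1.58-fold higher (limma adjusted p = 0.0439). Gata3, a factor of sympathetic neurons that is also made in urothelium, differed by 2.44 (SE 0.35, limma adjusted p = 0.0111), and Nos1, the neuronal nitric oxide synthase, by 1.62 (SE 0.28, limma adjusted p = 0.0209). Chrnb4 was at the floor on all 3 bladder arrays and Gata3 was also higher in urethra than bladder, by 2.75 (SE 0.38, limma adjusted p = 0.00704), where Gfra3, a receptor subunit for artemin, was higher by 2.75 (SE 0.66, limma adjusted p = 0.0481), beside 2.62% of all genes.
Sensory genes had 3 of 8 called higher in the urogenital sinus than in the bladder (1.73% of all genes), the neurotrophin receptors Ntrk2, by 2.15 (SE 0.33, limma adjusted p = 0.0123), and Ntrk3, by 3.62 (SE 0.58, limma adjusted p = 0.0159), and the sodium channel Scn9a, by at least 1.48-fold (limma adjusted p = 0.0465). Ntrk3 was also called between urethra and bladder, at 2.71 (SE 0.62, limma adjusted p = 0.0428). Spinal cord and brain genes had 0 of 9 called between urogenital sinus and bladder (median 0.49), where 2.54% of all genes were called in either direction. In the urogenital sinus against the urethra 0 genes were called in any of these neuronal lists. Only 0.0133% of all genes were called there, so this count is no result about the lists.

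Markers of other cells that the dissection could hold are set beside these results. Summed intensity over the 9 tested spinal cord and brain genes was 1334 to 1834 on the urogenital sinus arrays, 1528 to 1917 on the urethra arrays and 724 to 1193 on the bladder arrays, against 7644 to 9802 in the newborn reference, and 5 to 8 of the 9 were under the filter level on each urogenital sinus array. The autonomic genes summed to 42714 to 109865 on the urogenital sinus arrays, 27877 to 47163 on the urethra arrays and 20874 to 29330 on the bladder arrays. A sum weighs the brightest genes most. Urethra replicate 1 had the highest urethra sum but the lowest mean of the autonomic genes there, 8.54, against 9.21 and 9.12 on urethra replicates 2 and 6. On urogenital sinus replicate 1 the mean of the autonomic genes was 8.79, against 9.94 to 10.98 on the other urogenital sinus arrays.

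Schwann cell and neural crest markers had 2 of 9 called higher in the urogenital sinus than in the bladder (1.73% of all genes), Tfap2a by 2.78 (SE 0.39, limma adjusted p = 0.0102) and Tfap2b by at least 3.27-fold (limma adjusted p = 0.0119), both factors of neural crest that are also made in other embryonic tissues. This list had 8 of 9 positive differences (median 1.07, against 0.19 over all genes). Its mean level was 8.61 on urogenital sinus replicate 1 and 10.07 to 10.43 on the other urogenital sinus arrays, against 8.33 to 8.76 on the bladder arrays. Its sums ran from 9635 to 39650 in the urogenital sinus and from 17515 to 24877 in the bladder, and the lowest was urogenital sinus replicate 1. Sox10, the defining factor of the glial lineage, was at 8.99, 7.71, 8.23 and 8.30 on the urogenital sinus arrays and 6.64, 8.17 and 7.40 on the bladder arrays, with overlap. Smooth muscle genes had 6 of 10 called lower in the urogenital sinus than in the bladder (0.812% of all genes), Actg2 among them at -4.41 (SE 0.54, limma adjusted p = 0.00552), and summed to 13839 to 58280 in the urogenital sinus and 100266 to 134115 in the bladder. The regions were dissected by the reporter under the Actg2 promoter, so these calls follow from that choice and are no independent result.
Skeletal muscle genes, relevant because muscle also makes Rbfox1, had 0 of 13 called between urogenital sinus and bladder, and summed to 2831 to 8198 in the urogenital sinus and 3644 to 6458 in the bladder, against 365435 to 478327 in the reference. Urethra replicate 2, the highest urethra array for 6 of the 10 pan-neuronal genes, had a skeletal muscle sum of 49980. Hindgut and adrenal lists had 0 of 6 called each between urogenital sinus and bladder, where 2.54% of all genes were called in either direction. The hindgut genes summed to 645 to 1879 in the urogenital sinus, 550 to 999 in the urethra and 507 to 799 in the bladder. The highest sum of the region arrays was that of urogenital sinus replicate 1, and the reference had 73726 to 118942. Vil1, a gut epithelial gene, was at 5.65 to 5.79 on the urogenital sinus arrays, against 11.53 to 12.40 on the reference arrays. Urothelium and epithelium genes had 1 of 14 called higher in the urogenital sinus than in the bladder (1.73% of all genes). Of the 14 differences 9 were positive (median 0.25, against 0.19 over all genes). Between urethra and bladder 2 were called higher and 1 lower, beside 2.62% and 1.71% of all genes. The part of glial, muscle or epithelial cells in the results was not tested.

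**Figure D4:**
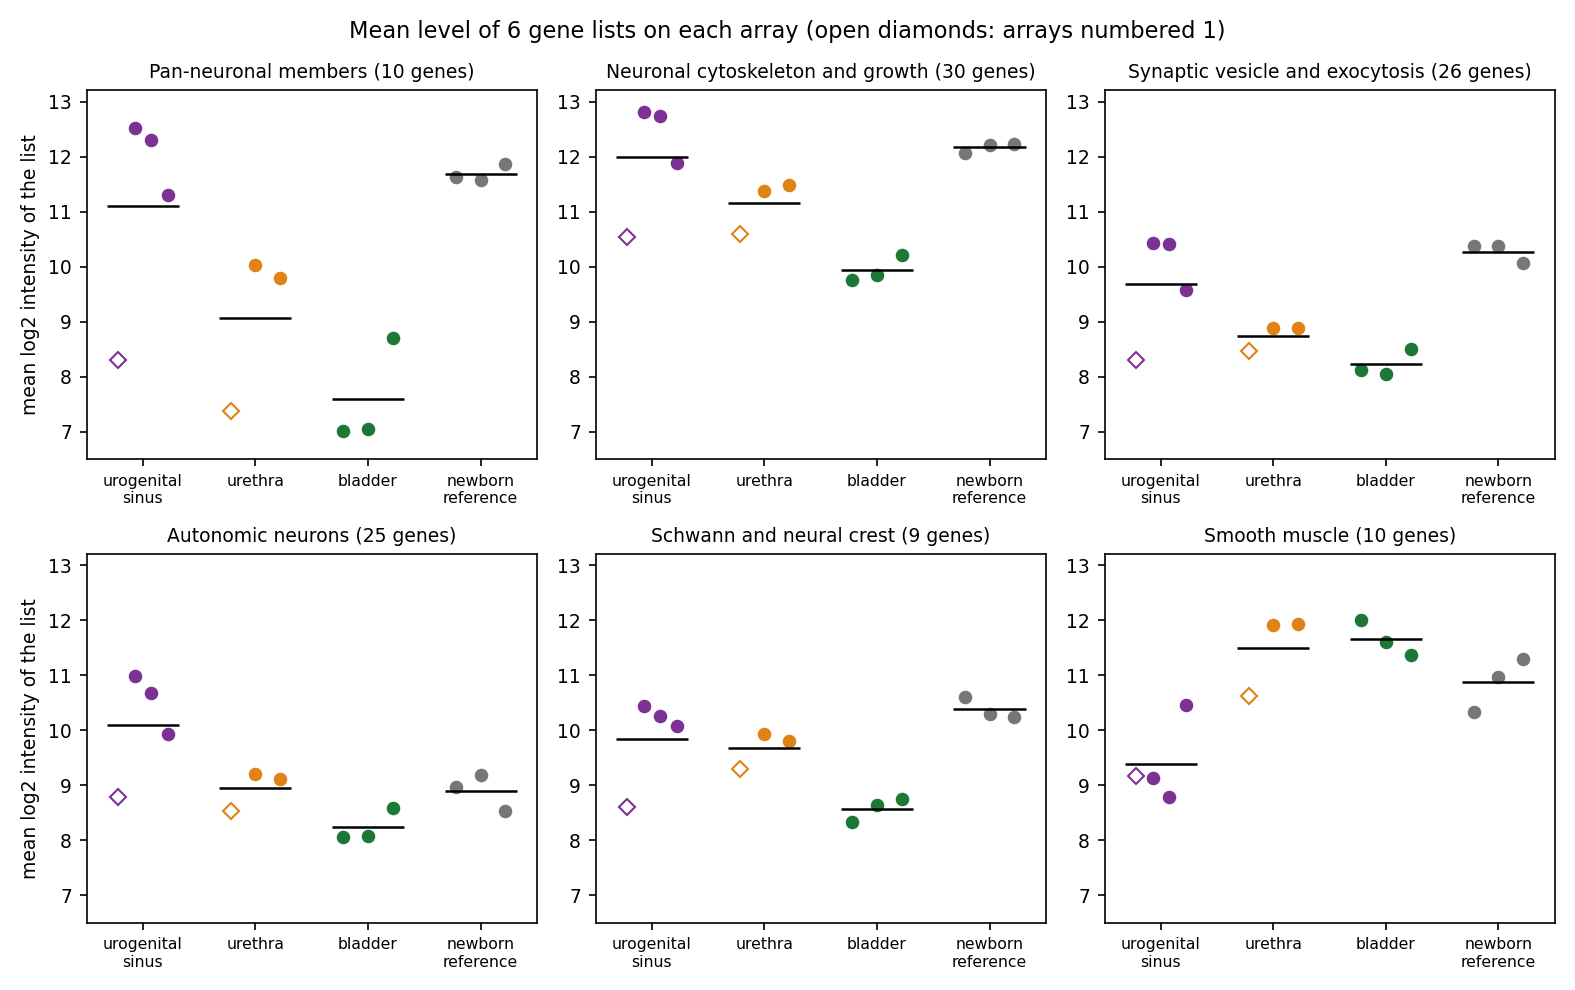
Mean log2 intensity (vertical axes) of the 10 pan-neuronal genes and of other gene lists on each array, with black bars at group means and open diamonds for the arrays numbered 1. The pan-neuronal mean is 8.30 on urogenital sinus replicate 1 and 11.30 to 12.51 on the other urogenital sinus arrays, and the autonomic mean is 8.79 against 9.94 to 10.98.

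Outside the 10 genes, genes of the lists included, those whose pattern was most like the members' mean over the 10 region arrays were ranked by Pearson's r, as a description only, because the arrays share regions and the low arrays numbered 1. The 10 most alike were Stmn3 (r = 0.991), Vip (0.989), Scn3b (0.987), Calcb (0.982), Chrna3 (0.980), 4930512H18Rik (0.975), Rtn1 (0.972), Gjd2 (0.971), Mapk10 (0.971) and Phox2a (0.968). The median r over 14945 other genes was 0.03, and 93 of them exceeded 0.9. Stmn3 is a microtubule protein of the same family as Stmn2, Vip and Calcb encode the neuropeptides VIP and beta-CGRP, and Chrna3 encodes the main ganglionic nicotinic receptor subunit. Phox2a encodes a factor required for autonomic neurons and measured 7.13, 11.66, 10.80 and 9.49 on the urogenital sinus arrays, 7.18, 8.99 and 8.49 on the urethra arrays and 6.46, 7.24 and 7.66 on the bladder arrays. Vip measured 7.60, 12.42, 11.86 and 10.57 on the urogenital sinus arrays, 7.32, 9.11 and 9.66 on the urethra arrays and 6.27, 6.17 and 8.36 on the bladder arrays, and both genes were lowest in their group on replicate 1. None of these 10 genes passed the test between urogenital sinus and bladder, where the smallest adjusted p among them was 0.061 (limma, Rtn1, 3.77).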

How the data were processed

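Expression was measured on 13 Affymetrix MOE430 arrays: 4 urogenital sinus, 3 urethra, 3 bladder and 3 newborn reference arrays. The authors deposited linear signal intensity for 45101 probe sets, made with GCOS (Affymetrix software, no version) per the submitters' processing notes. Leaving out 2% at each end, the mean intensity was 1500 in all 13 columns, so no further normalization was applied. Other steps and the genome build were not given in the sources used here, and detection calls were not analysed here.

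Values under the table's 20th percentile (50.23) were raised to it before log2 was taken. Without the 64 controls, probe sets above the 40th percentile (167.76) on at least 3 arrays were kept, which left 33125. Genes were named through the platform annotation. A gene was read from its brightest kept probe set by mean level, which gave 15019 tested genes. A fold against a group whose arrays were all under 167.76 is a lower bound against that level, written "at least".

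Tests used limma 3.58.1 under R 4.3.3, by lmFit and trended eBayes, and two-sided p-values were adjusted by the Benjamini-Hochberg method over all genes tested. The 10 region arrays shared 1 fit with 7 residual and 2.83 prior degrees of freedom. The mean of the reference arrays entered as 1 sample, assumed to vary like the others. The number of arrays limits the precision. The fit was also tested on simulated data. The reported stage comparison had region as its only covariate and no block. A random block for title number, run with statmod 1.5.0, was an alternative to it. Title numbers are shared between regions but were not taken as pairs.

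All 10 genes are named in every comparison. From the other lists called genes are named by smallest adjusted p, at most 4 a list and comparison, and for some lists and comparisons none is named. Of the 6 smooth muscle genes called lower only Actg2 is named. Where none was called, the gene of smallest p is named as such for the synaptic list only. Sox10, Vil1, Cdh17, Phox2a, Vip, Hbb-bh1 and the extra probe sets were singled out after their values were seen. The members and lists were chosen with earlier results of these data known, so they are no independent support. Alternatives were quantile normalization, array centring, other floors, filters and probe set rules, array weights and other limma settings, fewer arrays, stage as a covariate, blocks for title number and style, and each array left out.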

Additional observations from a re-analysis of the deposited data

Results flagged for a closer look

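For 4 of the 10 pan-neuronal genes, 1 of the 4 urogenital sinus arrays lay far from the other 3. It was replicate 1 each time, and it was low. The gap from it to the nearest array, as a share of the range of the 4 arrays, was 0.882 for Elavl2 (10.79 on replicate 1, next 14.04), 0.926 for Elavl4 (6.54, next 13.07), 0.871 for Stmn2 (5.65, next 12.98) and 0.907 for Snap25 (5.65, next 11.71), above Dixon's critical value for 4 samples. Chance puts about 1 in 20 groups past that value, and the genes are not independent of each other, since they share the arrays. The share was 0.234 to 0.63 for the other 6 genes, and for Rbfox1 the lowest array was replicate 7, not replicate 1. Replicate 1 also carried the highest Hbb-bh1 level of the region arrays, 15.04. The cause was not tested.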

How the results depend on the processing

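The 10 differences between urogenital sinus and bladder were positive under every alternative run, and their median ranged from 2.55 to 5.10 (3.66 as reported). The highest median came with the title number block, which also used fewer arrays. The count of these 10 genes called was less stable. As reported it was 4, and it was 1 after quantile normalization, 1 after centring arrays on their medians, 1 with only the arrays of the 2 regions, 2 with the floor at the 40th percentile, 2 with no filter and 10 with array weights. It ran from 1 to 7 with single arrays left out, and was 10 without both arrays numbered 1, an alternative chosen after seeing the data. Calls over all genes moved too, from 46 to 2668 under the alternatives, against 382 as reported. Between urogenital sinus and urethra the count moved from 0 to 3 with array weights only. Those weights also raised the share of all genes called there to 4.42%, against 0.0133% as reported. Between urethra and bladder it was 1 as reported, 2 with array weights, 2 without both arrays numbered 1, and 0 after quantile normalization, centring, the mean of all kept probe sets, only 2 regions' arrays or a title style block, and it ran from 0 to 1 with single arrays left out. There the calls over all genes ran from 55 to 1873 under the alternatives, against 651 as reported.
Against the reference, the urogenital sinus count of 0 became 2 with array weights, 1 with the 3 reference arrays as 3 samples and 1 without both arrays numbered 1. The urethra count of 2 became 0 after centring, 1 with no filter and 4 with 3 reference samples, and ran from 1 to 3 with single arrays left out. The bladder count of 4 became 7 with array weights, with 3 reference samples and without both arrays numbered 1, and ran from 3 to 7 with single arrays left out. Calls over all genes against the reference moved too under the alternatives. They ran from 1324 to 5270 for the urogenital sinus, against 2076 as reported. For the urethra they ran from 1304 to 4196, against 1987, and for the bladder from 1776 to 5791, against 2557. Array weights also raised the calls over all genes, to 17.8% between urogenital sinus and bladder against 2.54%. Centring moved the median of all genes between urogenital sinus and bladder to -0.38 from 0.19 and that of the 10 genes to 3.12.
With the title number as a replicate block, 8 of the 10 genes were called between urogenital sinus and bladder (0.706% of all genes called higher), 2 between urethra and bladder (Tubb3 and Gap43, median 3.08, with 0.619% of all genes called higher) and 0 between urogenital sinus and urethra. This fit kept only numbers shared between regions, so it left out urogenital sinus replicate 7 and bladder replicate 8. The effects of the block and of the arrays left out were not separated. Rbfox1, called between urethra and bladder as reported, was not called there under the block. The deviations of same-numbered arrays from their group means correlated between -0.168 and 0.362, and only urogenital sinus with urethra replicate 2 was negative. Differently numbered arrays of 2 regions correlated between -0.513 and 0.413. The ranges overlap, so the numbers were neither shown to pair the samples nor shown not to.
Differences with no call changed sign in these cases. Elavl4 between urethra and bladder, -0.57 as reported, was 0.36 for the mean of its probe sets, 2.16 for probe set 1450258_a_at and 0.38 with array weights. It was 0.30 with stage as a covariate, and 2.21 with the replicate block, which also left out bladder replicate 8. Without both arrays numbered 1 it was 0.77. With single arrays left out it ran from -1.29 to 0.77, above 0 without bladder replicate 8 or urethra replicate 1. Stmn2 between urethra and bladder, 0.52 as reported, was -0.0386 after centring and ran from -0.364 to 2.28 with single arrays left out, below 0 without bladder replicate 2 or 6 and without urethra replicate 2 or 6. Other probe sets gave -0.37 for Elavl2 (1433052_at), -0.41 for Snap25 (1447763_at) and -0.27 for Mapt (1417885_at) between urogenital sinus and urethra, and -0.0262 for Elavl2 (1454454_at) between urethra and bladder. For Rbfox1, called between urethra and bladder as reported, probe set 1447735_x_at gave -0.0400 there. The cause was not tested. With 3 or 4 arrays a region, differences with a standard error above 1, as for Elavl4, Stmn2 and Snap25, were not resolved.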
